A study of Rattus norvegicus with 3 samples.

Results

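Mature CD8 thymocytes were the 118 cells of a rat thymocyte library that the authors labelled Mature CD8-1 (91 cells) or Mature CD8-2 (27 cells), out of 8546 annotated cells. The label of a cell was its projected label, or its initial cluster where none was projected. The library came from the thymus of Lewis rats, an inbred strain, at 8 weeks of age, with no treatment or mutation named. The series also held a library of stromal cells without CD45, the surface protein of blood-derived cells, and a Stereo-seq section 10 µm thick, in which RNA is captured on a patterned chip. Comparison cells of the same library were those labelled Immature CD8 (256 cells in the labels Immature CD8-1 and -2) and Mature CD4 (248 cells in the labels Mature CD4-1 and -2). Labels were made with references that joined these rat libraries and published mouse data, so the names rest partly on mouse cells.

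T cells form in the thymus from double-positive (DP) cells, which carry both co-receptors, CD4 and CD8. A DP cell whose receptor recognises MHC class I keeps CD8 under the transcription factor Runx3 and loses CD4, while recognition of class II leads to the CD4 lineage through Zbtb7b (ThPOK). The resulting single-positive cells mature in the medulla, where they lose the chemokine receptor Ccr9 and gain Klf2 and its target S1pr1, the sphingosine-1-phosphate receptor used to leave the thymus.

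There was 1 thymocyte library, so no comparison had a replicate check and no p-value is given. Values came from unique molecular identifiers (UMIs), tags that let each captured RNA be counted once. They were summed over the cells of a label and given as CPM, UMIs per 1000000 UMIs of that label. CPM is not corrected for gene length, so levels are compared between labels and not between genes. All intervals are 95% intervals for counting error only. They do not cover variation between animals, and cells of 1 library share their source. Because the labels were assigned from these same cells' RNA, differences between labels describe the labels. A gene was considered when its mean CPM over Mature CD8, Immature CD8 and Mature CD4 was at least 30, which left 4629 genes. It was counted as higher or lower when the ratio was at least 2 and the higher label held at least 20 UMIs.

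Mature CD8 cells were 1.38% of annotated cells (1.14 to 1.65%, exact binomial), with 1.06% labelled Mature CD8-1 and 0.316% labelled Mature CD8-2. All 118 came from the authors' cluster Mature SP. They were deeper than the cells of both comparison groups, with a median of 11026 UMIs per cell (4533 to 25259) against 5338.5 in Immature CD8 and 8618.5 in Mature CD4. The median was 10290 in Mature CD8-1 and 15655 in Mature CD8-2. Ribosomal protein genes gave 33.5% of UMIs in Mature CD8-1, 27.4% in Mature CD8-2, 23.8% in Immature CD8 and 28.7% in Mature CD4. The thymocyte and stromal libraries shared 38 barcodes, none of them a Mature CD8 cell. The 28 barcodes without annotation held no UMI of Cd8a or Cd8b.

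The co-receptor and maturation genes that define the cell type separated the 2 labels. Cd8a, the alpha chain of the CD8 co-receptor, stood at 585 CPM in Mature CD8-1 (538 to 636) and 184 CPM in Mature CD8-2 (145 to 230). Cd8b, the beta chain, stood at 232 CPM (202 to 265) and 29.0 CPM. For Cd8b, Mature CD8-1 ranked 4 and Mature CD8-2 ranked 21 among the 21 labels of at least 20 cells in the library. Both genes were highest in DP cells, at 1497 CPM for Cd8a and 1372 CPM for Cd8b. Runx3 stood at 307 CPM in Mature CD8-1, the highest level of these 21 labels, and at 72.5 CPM in Mature CD8-2.

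The CD4 side of the pair showed the opposite order. Cd4 stood at 67.5 CPM in Mature CD8-1 and 188 CPM in Mature CD8-2, beside 219 CPM in Mature CD4-1 and 314 CPM in Mature CD4-2. Cd40lg, the ligand with which CD4 helper cells stimulate B cells, had 8 UMIs (8.44 CPM) in Mature CD8-1 and 48 UMIs (116 CPM) in Mature CD8-2, a level near the 155 and 103 CPM of Mature CD4-1 and -2. Zbtb7b was low everywhere, with 6 UMIs in Mature CD8-1 and 4 UMIs in Mature CD8-2. S1pr1 stood at 161 CPM in Mature CD8-1 and 29.0 CPM in Mature CD8-2. Klf2 stood at 300 and 188 CPM. The marker levels went with the label Mature CD8-1 and against the label Mature CD8-2, whose cells are named below only by that label.

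**Figure D1:**
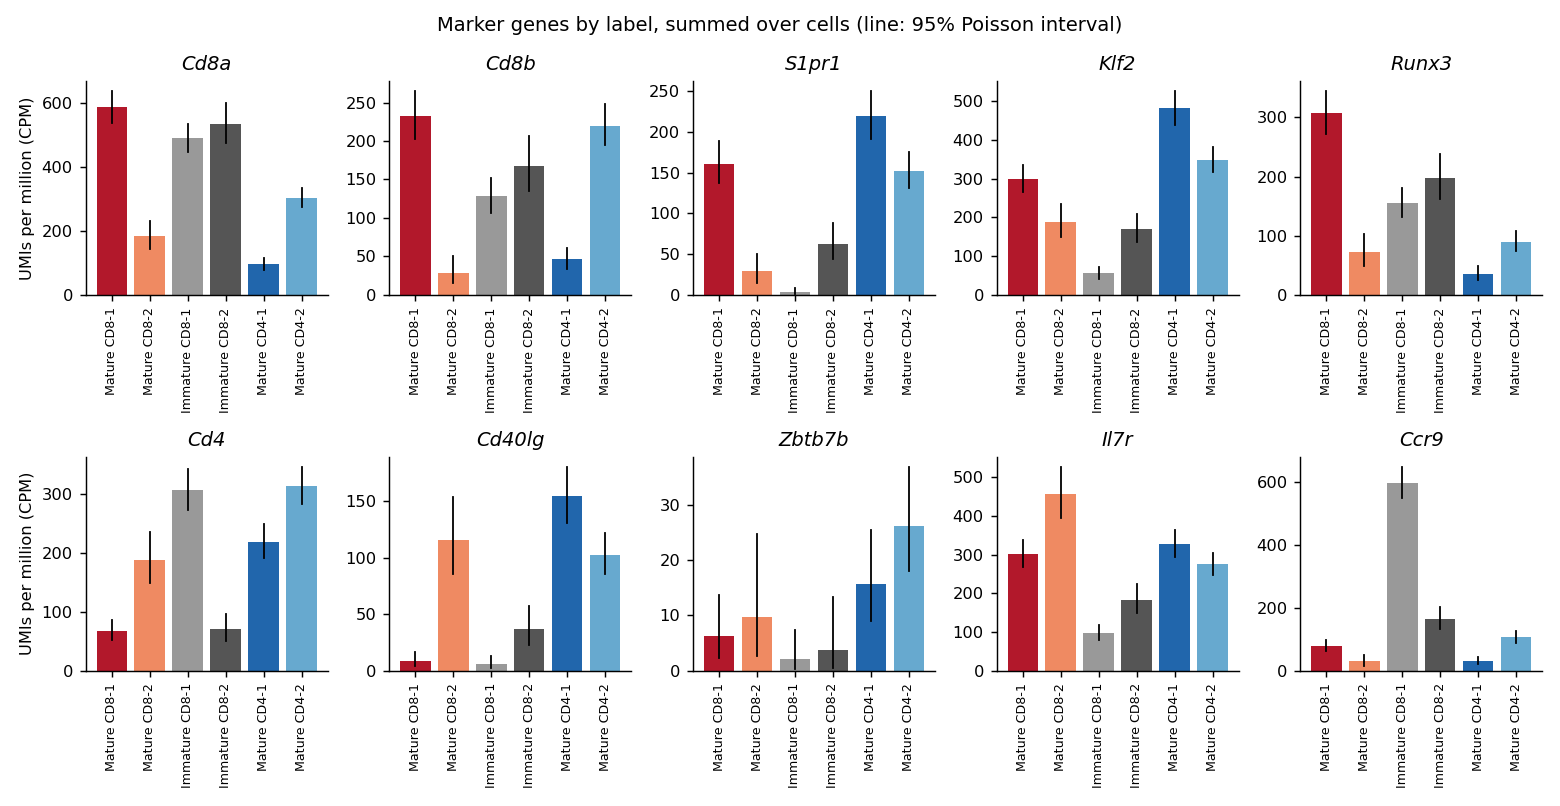
CPM of 10 marker genes in 6 labels of the thymocyte library, summed over the cells of each label, with 95% Poisson intervals as lines. Mature CD8-1 is highest for Runx3 at 307 CPM, and Mature CD8-2 sits with the Mature CD4 labels for Cd40lg and below every other label for Cd8b at 29.0 CPM.

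Single cells showed the same split. With every cell thinned to 4000 UMIs so that depth was equal, 70 of 91 Mature CD8-1 cells (76.9%, 66.9 to 85.1%) had a Cd8a or Cd8b UMI and none of Cd4. Of the 27 Mature CD8-2 cells, 6 (22.2%, 8.62 to 42.3%) were of this kind and 10 (37.0%, 19.4 to 57.6%) had Cd4 UMIs alone. Without thinning the CD8-only cells were 72 of 91 in Mature CD8-1 and 8 of 27 in Mature CD8-2. Mature CD8-2 cells with Cd4 alone then numbered 15, with both 3 and with neither 1. No thinning left out a cell of either label. Thinned alike, CD8-only cells were 39 of 61 (63.9%) in Immature CD8-2 and 48 of 156 (30.8%) in Immature CD8-1. They were 27 of 126 (21.4%) in Mature CD4-2, near the share of Mature CD8-2, and 13 of 115 (11.3%) in Mature CD4-1. Shallower cells of these labels were left out.

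Free RNA can give such UMIs in droplet data. Among the cells labelled B+myeloid, 6 of 130 (4.62%) had Cd8 UMIs alone and 26 of 130 had both co-receptors at the same thinned depth, with 40 shallower cells left out. Their median was 11506.5 UMIs before thinning. Cd4 stood at 358 CPM and Runx3 at 144 CPM in this label, so its co-receptor UMIs are not known to be free RNA. The Cd8-only share of Mature CD8-2 was higher, at 22.2%, but its interval began at 8.62% and overlapped that of B+myeloid (1.71 to 9.78%). Counting every cell with a Cd8 UMI, with or without Cd4, Mature CD8-2 had 6 of 27 and did not stand above B+myeloid. In Mature CD8-2, 6 cells held 71 of the label's 76 Cd8a UMIs, at least 5 UMIs each, and 5 of the 6 had no Cd4 UMI. The part of free RNA in these counts was not tested.

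**Figure D2:**
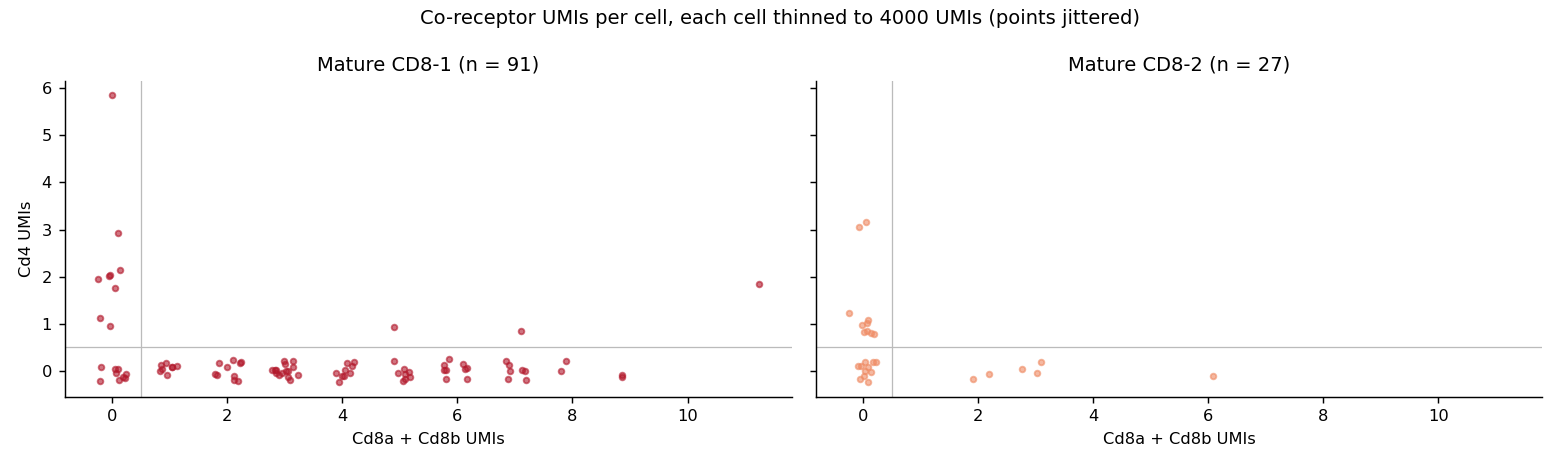
Cd4 UMIs against the sum of Cd8a and Cd8b UMIs in each cell labelled Mature CD8-1 (91 cells) or Mature CD8-2 (27 cells), every cell thinned to 4000 UMIs and points jittered. In Mature CD8-1, 70 cells lie along the Cd8 axis with no Cd4, while 6 Mature CD8-2 cells do.

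Within the label Mature CD8-2, the lineage genes Runx3 and Cd40lg followed the co-receptors. Zbtb7b, with 0 UMIs in the cells with Cd8 alone and 1 in those with Cd4 alone, was too low to compare. The 8 cells with Cd8 and no Cd4 held 23 Runx3 UMIs (171 CPM), 5 Cd40lg UMIs and 9 UMIs of Itm2a, a membrane protein gene of activated and selected thymocytes. The 15 cells with Cd4 and no Cd8 held 6 Runx3 UMIs (28.9 CPM), 32 Cd40lg UMIs (154 CPM) and 118 Itm2a UMIs (568 CPM). Ikzf2, which encodes the transcription factor Helios, stood at 357 CPM in the first set and 33.7 CPM in the second. These sets were formed from the co-receptor counts after the data had been seen, so the values are a description.

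Against Immature CD8, Mature CD8 cells held more RNA of egress genes and less of genes of recently selected thymocytes. Of 4629 genes, 107 (2.31%) were higher and 151 (3.26%) lower. The median log2 ratio of all considered genes was -0.20. Without mitochondrial, ribosomal protein and haemoglobin genes in the totals this median was -0.05 and the counts were 209 higher and 114 lower. No gene followed across the alternatives turned under that scaling.

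Of 13 considered genes for egress and late maturation, 6 were higher and 1 lower, with a list median log2 ratio of 0.57. S1pr1 stood at 121 CPM in Mature CD8 and 24.3 CPM in Immature CD8, a ratio of 4.99 (3.48 to 7.34). Klf2 was 2.76 times as high (2.27 to 3.36), and Foxo1, the transcription factor that drives Klf2 and Il7r, 2.87 times (2.34 to 3.54). Il7r, the receptor chain for the survival cytokine interleukin-7, was 2.74 times as high. Emp3, a small membrane protein gene, was 2.38 times as high. Itgb1, the integrin beta-1 chain, was the lower member, at 40.4 against 81.3 CPM.

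S1pr1 and Klf2 were ordered over 3 of the 4 CD8 labels. S1pr1 went from 3 UMIs (3.05 CPM) in Immature CD8-1 to 62.8 CPM in Immature CD8-2 and 161 CPM in Mature CD8-1, and Klf2 from 55.9 to 170 and 300 CPM. Mature CD8-2 lay outside this order, at 29.0 CPM of S1pr1 and 188 CPM of Klf2. For Il7r it was instead the highest of these labels, at 457 CPM against 301 CPM in Mature CD8-1.

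Of 13 considered genes of immature single-positive cells, 7 were lower and none higher, with a list median of -1.18. Ccr9, which holds thymocytes near epithelium that makes its ligand, stood at 63.1 against 444 CPM, 7.03 times lower (5.61 to 8.91). Tox2 was 8.63 times lower (5.50 to 14.3) and its relative Tox 2.88 times lower. Itm2a was 3.37 times lower. The early T cell factors Sox4 and Satb1 were 2.40 and 2.26 times lower. Nr4a1, an immediate target of T cell receptor signalling, was 3.25 times lower (2.33 to 4.63). None of 14 considered genes of T cell receptor signalling passed the rule in either direction. The activation marker Cd69 stood at 88.8 against 80.0 CPM.

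Some class I presentation and interferon genes were higher than in Immature CD8, mainly through Immature CD8-1. The 9 class I genes summed to 4211 CPM in Mature CD8, 1373 CPM in Immature CD8-1 and 4024 CPM in Immature CD8-2. The 20 interferon-stimulated genes summed to 1134, 389 and 1038 CPM. Of 8 considered class I genes, 4 were higher and none lower: RT1-A1 (2.24 times) and RT1-CE5 (2.06 times), which are rat class I heavy chains, Tapbp (2.01 times), which loads peptide, and Nlrc5 (2.79 times, 2.04 to 3.86), the class I transactivator. The RT1 genes have close copies, and how shared reads were assigned is not given in the sources used here. Of 8 considered interferon-stimulated genes, 3 were higher and none lower. Mx1, an antiviral GTPase, stood at 98.4 against 17.1 CPM, a ratio of 5.77 (3.77 to 9.15), with 2 UMIs in Immature CD8-1 and 24 in Immature CD8-2. The immunoproteasome subunit Psmb9 and the peptide transporter Tap1 were 2.04 and 2.03 times as high. With Mature CD8-1 alone, Tapbp, Psmb9 and Tap1 no longer passed. Mature CD8-1 against Immature CD8-2 left 1 of 8 genes higher in each list, Nlrc5 and Mx1.

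Several effector genes of cytotoxic cells were at or near 0 UMIs, while others were measured. Of 15 measured cytotoxic genes, 3 were considered and 2 were higher than in Immature CD8: Ctsw, a cysteine protease of cytotoxic and natural killer cells (394 against 114 CPM, 3.45 times), and Klrk1, the activating receptor NKG2D (52.1 against 17.1 CPM, 3.06 times). Gzma, Gzmk, Ccl5 and Xcl1, along with the effector factors Eomes and Tbx21, had 0 UMIs in 1361886, which allows up to 2.20 CPM. Gzmb had 2 UMIs. Nkg7, a granule membrane gene, had 6. The 15 genes together had a UMI in 116 of 118 cells, with Ctsw giving 536 of 739 UMIs. They summed to 543 CPM in Mature CD8, 103 CPM in Immature CD8-1, 373 CPM in Immature CD8-2 and 364 CPM in Mature CD4. Against Mature CD4, none of the 3 considered genes passed. With Mature CD8-1 alone, the perforin gene Prf1 was higher than in Mature CD4 and in Immature CD8-2, while Ctsw and Klrk1 passed against neither. The 4 measured gamma-delta and natural killer markers moved with Ctsw and Klrk1, at 24.2 CPM in Mature CD8 (0 to 479 CPM per cell, 17 of 118 cells with a UMI) and 1.97 CPM in Immature CD8 (0 to 180 CPM, 3 of 256 cells). Klrd1 gave 23 of the 33 UMIs in Mature CD8, Nkg7 6, Zbtb16 4 and Fcer1g 0, and the cytotoxic list also holds Klrd1 and Nkg7. Their part in the result was not tested.

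Among the 10 largest ratios above Immature CD8 were Gzmc, Sv2b, Ms4a4c, Calhm6, Slc4a4, Tnfrsf14, Tagln2, Lgals1, Scml4 and Rasa3. Ms4a4c, a membrane protein gene, stood at 247 against 22.3 CPM, a ratio of 11.1 (7.79 to 16.3). Slc4a4, a sodium bicarbonate transporter, stood at 342 against 41.3 CPM (8.28 times). Tnfrsf14, the receptor HVEM, stood at 115 against 15.7 CPM (7.32 times). The 10 largest in the other direction were Lypd6, Tox2, Ccr9, Dntt, Cacnb2, Daam1, Emb, Pde7b, Bach1 and Cep112. Dntt, the terminal transferase of receptor rearrangement, stood at 10.3 against 59.0 CPM. Rag1, a recombinase gene of receptor rearrangement, was counted as higher, with 25 UMIs in Mature CD8 and 9 in Immature CD8.

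How many genes were lower depended on the immature label. Immature CD8-1 cells stood nearer to DP cells: 45.9% of them had both co-receptors before thinning, and 11 of 194 came from the cluster Mature SP, against 51 of 62 in Immature CD8-2. Against Immature CD8-2 alone, an alternative chosen after the data had been seen, 87 genes were higher and 35 lower, and 56 of the 258 counted genes were shared. The log2 ratio of Cd4 turned to 0.57 there. Those of Tox (0.00758), Tox2 (0.0609), Cacnb2 (0.19) and RT1-A1 (-0.13) changed sign but were small, so these genes differed little from Immature CD8-2. Mature CD8-1 alone against Immature CD8-2 gave 88 higher (1.9%) and 103 lower (2.23%), with S1pr1 higher and Ccr9, Itm2a and Nr4a1 lower.

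Several pooled values rested on the 27 cells of Mature CD8-2. Mature CD8-1 alone against Immature CD8 gave 98 higher (2.12%) and 235 lower (5.08%). The same 6 egress genes were higher and the same 7 immature genes lower. Cd40lg turned from 2.41 times higher in the pool to a log2 ratio of -1.01, and the replication gene Mcm6 to -0.10. Mature CD8-2 alone gave 160 higher (3.46%) and 298 lower (6.44%), with Il7r among the higher genes and Cd8a, Cd8b and Runx3 lower.

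**Figure D3:**
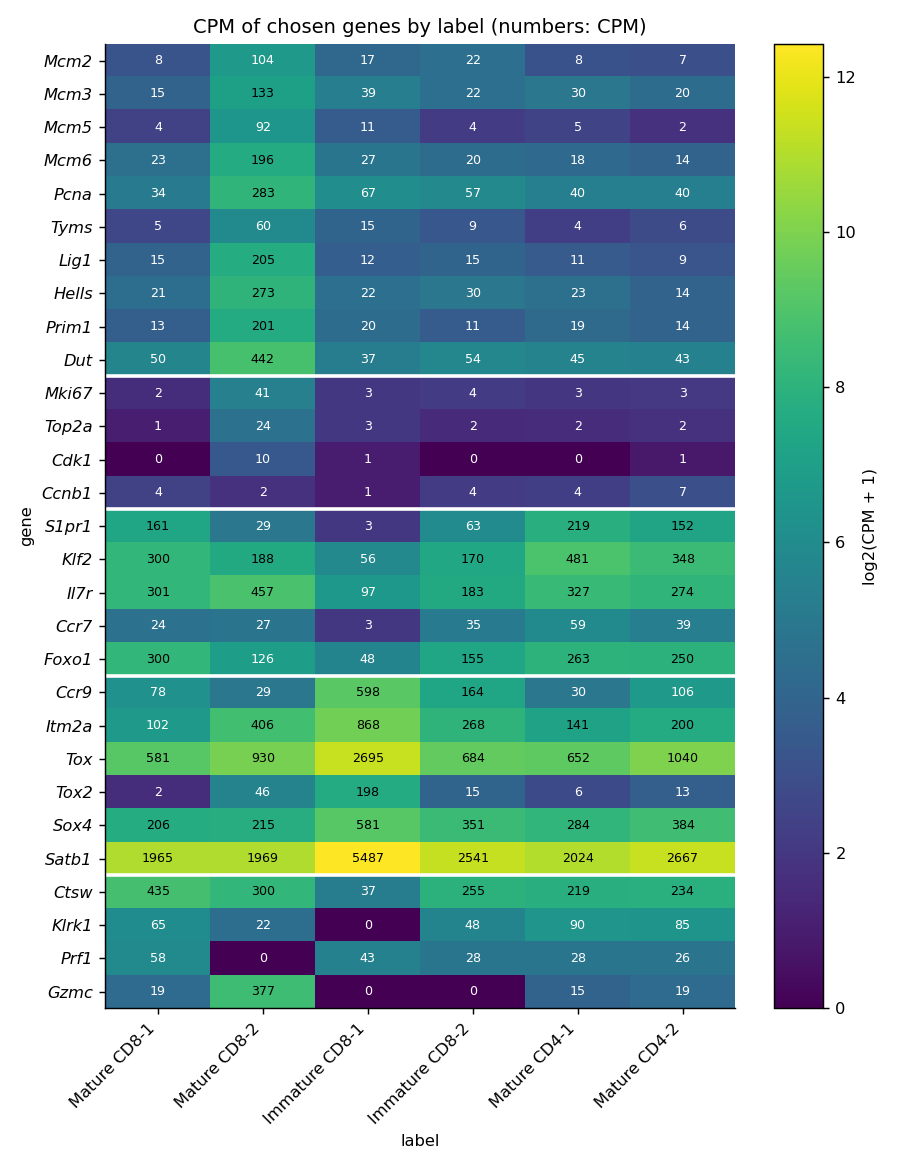
CPM of 29 genes in 6 labels, coloured by log2(CPM + 1) with CPM printed in each cell, in blocks for replication, mitosis, egress, immature cells and cytotoxic function. Each replication gene is higher in Mature CD8-2 (Dut 442 CPM, Pcna 283 CPM) than in the other 5 labels, and the egress block is low in Immature CD8-1.

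Against Mature CD4, 2 of 3 CD8 lineage genes were higher and 2 of 5 CD4 lineage genes lower, while no egress gene passed the rule. Of 4629 genes, 36 (0.778%) were higher and 42 (0.907%) lower in Mature CD8, with a median log2 ratio of -0.07. Totals without mitochondrial, ribosomal protein and haemoglobin genes gave 75 and 63. Of 3 considered CD8 lineage genes, Runx3 was 3.62 times as high (2.97 to 4.42) and Cd8a 2.21 times (1.95 to 2.49). Cd8b, at 170 against 142 CPM, did not pass. Of 5 considered CD4 lineage genes, Cd4 was 2.61 times lower (2.17 to 3.15) and Cd40lg 3.06 times lower (2.29 to 4.16). None of 13 egress genes passed in either direction. S1pr1 stood at 121 against 182 CPM and Klf2 at 266 against 408 CPM.

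Most of the largest ratios above Mature CD4 rested on Mature CD8-2. The 10 largest above Mature CD4 were Lig1, Gzmc, Hells, Mcm6, Prim1, Dut, Lmnb1, Runx3, Pola1 and Dnmt1, mostly genes of DNA replication. Of these 10, Runx3 alone passed when Mature CD8-1 was set against Mature CD4. With Mature CD8-1 alone, 14 genes (0.302%) were higher and 71 (1.53%) lower, and none of the 6 considered cell cycle genes passed, where 4 had been higher in the pool. Mcm3, Pcna, Stmn1 and Prim1 then had log2 ratios below 0. Mature CD8-2 alone gave 233 higher (5.03%) and 235 lower (5.08%). Mature CD8-2 against Mature CD4-2 gave 243 higher (5.25%) and 337 lower (7.28%). Of the 6 considered cell cycle genes 5 were higher, and S1pr1, S1pr4, Klf3 and Itga4 were among the lower egress genes. The list held 18 cell cycle genes, and the 30 CPM filter used the pooled Mature CD8 level. Genes high only in Mature CD8-2, such as Mcm6, could pass it, so these cell cycle counts partly depend on the filter.

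The 10 largest below Mature CD4 were Rag1, Dntt, Slc7a11, Cd79a, Thy1, Cacnb2, Ssx2ip, Cdc14b, Emb and Angpt1. Rag1 stood at 18.4 against 115 CPM. Its 261 UMIs in Mature CD4 lay almost wholly in Mature CD4-2, with 250, against 11 in Mature CD4-1. Mature CD4-1 and Mature CD8-1 held 10.8 and 21.1 CPM of Rag1, beside 1952 CPM in DP cells. For Angpt1, Cacnb2, Emb, Rag1, Slc7a11, Ssx2ip and Thy1 the direction turned when Mature CD8-1 was set against Mature CD4-1.

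Cd79a, the alpha chain of the B cell receptor complex, was also lower, at 28.6 against 155 CPM, 5.40 times (3.87 to 7.72), and stood at 264 CPM in B+myeloid cells. The B cell markers Cd79b, Ms4a1 and Pax5 had 0 UMIs in both groups. A UMI of the B cell list was found in 21 of 118 Mature CD8 and 102 of 248 Mature CD4 cells, and the part of B cell RNA in this difference was not tested. Cd79a was also higher in Mature CD8 than in Immature CD8, which held 13 UMIs (8.53 CPM). The 5 B cell markers gave 0 to 689 CPM per Mature CD8 cell and 0 to 2567 CPM per Mature CD4 cell. Overlap of Cd79a with other genes and the strand setting of the counting are not given in the sources used here. Other marker lists gave 44.8 CPM in Mature CD8 summed over 8 myeloid genes against 15024 CPM in B+myeloid cells, 8.08 CPM over 5 class II genes, 2.94 CPM over 5 epithelial genes and 0 UMIs of 4 erythroid and 4 mesenchymal genes. The 3 endothelial genes summed to 57.3 CPM in Mature CD8 and 57.7 CPM in Immature CD8. The 4 regulatory T genes summed to 231 CPM in Mature CD8 (0 to 4382 CPM per cell), 233 CPM in Immature CD8 and 229.9 CPM in Mature CD4, and Ikzf2 gave 273 of the 314 UMIs in Mature CD8.

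The labels numbered 1 were also set against each other. Mature CD8-1 against Mature CD4-1 had 53 genes higher (1.14%) and 41 lower (0.886%). Runx3 stood at 307 against 35.4 CPM, a ratio of 8.66 (6.11 to 12.6). Cd8a was 6.13 times as high (4.93 to 7.69) and Cd8b 5.02 times (3.65 to 7.03). Cd40lg was 18.3 times lower (9.07 to 43.2) and Cd4 3.25 times lower (2.45 to 4.36). Cep112, a centrosomal protein gene, led the list at 147 against 11.8 CPM, 12.4 times (6.88 to 24.6). Ikzf2 was 4.09 times as high (3.02 to 5.62). No considered gene of the egress, class I, interferon or cell cycle lists passed the rule.

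Labels were also compared at a common depth of 413839 UMIs per label, in a comparison added after the data had been seen. Mature CD8-1 differed by at least 2-fold from Mature CD4-1 at 167 genes (3.61%), from Immature CD8-2 at 256 (5.53%) and from Mature CD4-2 at 290 (6.26%). It differed from Mature CD8-2 at 516 (11.1%), 384 of them higher in Mature CD8-2, and most from Immature CD8-1, at 721 (15.6%). By this count Mature CD8-1 was closer to 3 labels of other names than to Mature CD8-2. Genes high only in Mature CD8-2 could pass the 30 CPM filter on pooled levels, so the counts with that label partly depend on the filter. Mature CD8-2 differed least from Immature CD8-2, at 339 genes (7.32%). These counts hold counting noise, which is equal for the labels by depth and not by gene.

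Mature CD8-1 and Mature CD8-2 differed most in replication genes. Of 4629 genes, 165 (3.56%) were higher in Mature CD8-1 and 300 (6.48%) were lower, with a median log2 ratio of -0.12. Totals without mitochondrial, ribosomal protein and haemoglobin genes moved the counts to 379 and 259. All 6 considered cell cycle genes were lower in Mature CD8-1: Pcna, Stmn1, Mcm3, Mcm6, Hmgb2 and Tubb5, with a list median of -3.07. The 30 CPM filter used the pooled Mature CD8 level, so genes high only in Mature CD8-2 could pass it. Mcm6 and Gzmc, for example, stood below 30 CPM in Mature CD8-1 and in each Immature CD8 and Mature CD4 label. The count of 6, its median and the 300 genes thus partly depend on the filter. Pcna, the sliding clamp of DNA polymerase, stood at 33.8 against 283 CPM, 8.38 times (5.62 to 12.8). Mcm6, a subunit of the replicative helicase, stood at 23.2 against 196 CPM, 8.43 times (5.21 to 14.2). Stmn1, a tubulin-binding protein of dividing cells, stood at 128 against 1124 CPM, 8.80 times (7.19 to 10.8).

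The 10 largest ratios on the side of Mature CD8-2 were Gzmc, Prim1, Lig1, Cd40lg, Hells, Lmnb1, Ezh2, Mcm3, Dut and Stmn1. Prim1 encodes DNA primase and stood at 12.7 against 201 CPM, 15.8 times (8.60 to 31.9). Lig1 encodes the ligase that joins Okazaki fragments and stood at 14.8 against 205 CPM, 13.9 times (7.85 to 26.5). Hells encodes a chromatin remodeller of replicating cells and stood at 21.1 against 273 CPM, 12.9 times (8.00 to 22.0). Dut, which keeps uracil out of DNA, stood at 49.6 against 442 CPM, 8.92 times.

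The replication level was spread over all cells of the label. Mcm2, Mcm3, Mcm5, Mcm6, Pcna and Tyms together gave 867 CPM in Mature CD8-2, with a lowest cell of 158, a median of 719 and a highest of 1698 CPM, and all 27 cells had a UMI of these genes. In Mature CD8-1 they gave 89.7 CPM, with a median of 83.3 and a highest cell of 418 CPM, so the 2 labels overlapped in part of their cells. Thinned to 4000 UMIs, 88.9% of Mature CD8-2 and 28.6% of Mature CD8-1 cells had such a UMI. Immature CD8 and Mature CD4 stood at 162 and 96.5 CPM, and the label Mature cycling T at 960 CPM. Within Mature CD8-2 the level was 886 CPM in the 8 cells with Cd8 alone and 842 CPM in the 15 with Cd4 alone.

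Mitotic genes did not follow to the level of cycling cells. Mki67, the proliferation antigen, stood at 41.1 CPM in Mature CD8-2 against 2.11 CPM in Mature CD8-1 and 800 CPM in Mature cycling T. Top2a, the topoisomerase that separates sister chromatids, stood at 24.2, 1.05 and 1317 CPM. Ccnb1, the mitotic cyclin, had 1 UMI in Mature CD8-2, which is under the floor of 3 UMIs, and 168 CPM in Mature cycling T. Mature CD8-2 cells had 1.52 times the median UMIs of Mature CD8-1, and the part of depth in these values was not tested beyond the thinned shares.

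Because the replication genes were higher together in Mature CD8-2, their promoters were searched for the E2F site. E2F factors drive genes of DNA replication as cells enter S phase. Promoters were those of RefSeq on GRCr8, another build than that of the counts, from 250 bases before to 50 after the start of each gene. The letters searched were TTTGGCGC, TTTCGCGC, TTTCCCGC and TTTGCCGC on both strands. The 4 sequences shown were picked from genes that were higher in Mature CD8-2 and hold a match. They are the replication genes Mcm3, Mcm6 and Lig1 and the tubulin regulator Stmn1. Every match is in capitals, and the letters run 5′ to 3′ in the direction of the gene.
Mcm3 promoter, chr9:30733697-30733996, minus strand: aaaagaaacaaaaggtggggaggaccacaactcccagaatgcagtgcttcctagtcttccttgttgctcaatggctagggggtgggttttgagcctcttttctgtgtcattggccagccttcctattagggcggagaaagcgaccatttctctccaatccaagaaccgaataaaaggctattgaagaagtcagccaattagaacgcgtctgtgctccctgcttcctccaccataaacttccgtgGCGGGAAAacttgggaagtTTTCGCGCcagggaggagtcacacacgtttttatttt
Mcm6 promoter, chr13:42404303-42404602, minus strand: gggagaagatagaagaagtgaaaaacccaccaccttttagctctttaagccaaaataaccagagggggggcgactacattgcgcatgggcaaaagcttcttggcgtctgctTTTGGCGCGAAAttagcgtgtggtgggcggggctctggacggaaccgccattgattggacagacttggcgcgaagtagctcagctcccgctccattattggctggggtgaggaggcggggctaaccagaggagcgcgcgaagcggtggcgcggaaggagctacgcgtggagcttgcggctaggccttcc
Lig1 promoter, chr1:83242920-83243219, plus strand: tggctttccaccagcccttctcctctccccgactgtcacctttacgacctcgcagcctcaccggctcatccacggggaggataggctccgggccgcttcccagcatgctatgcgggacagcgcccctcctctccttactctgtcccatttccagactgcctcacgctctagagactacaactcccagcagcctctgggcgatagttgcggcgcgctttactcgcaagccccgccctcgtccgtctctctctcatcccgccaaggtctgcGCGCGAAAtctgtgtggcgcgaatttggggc
Stmn1 promoter, chr5:151964929-151965228, plus strand: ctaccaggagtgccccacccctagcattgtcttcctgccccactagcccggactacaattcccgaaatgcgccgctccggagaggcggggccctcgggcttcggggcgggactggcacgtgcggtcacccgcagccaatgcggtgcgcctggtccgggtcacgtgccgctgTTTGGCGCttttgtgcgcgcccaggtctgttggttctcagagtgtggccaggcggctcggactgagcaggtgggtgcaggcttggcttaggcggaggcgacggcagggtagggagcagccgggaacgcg

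Mcm3 holds a match at position -6 and another at 14, counted from the first base of the gene as 1. In Mcm6, the matches at -139 and -135 overlap by 4 bases. Lig1 holds 1 match at 20 and Stmn1 1 at -79. Of 33469 promoters of this length in the table, 2.14% hold 1 of these octamers. This share is counted per promoter, while those below are counted per gene with a match in any of its promoters. Among the 300 genes higher in Mature CD8-2, 265 had a promoter in the table and 37 (14.0%) hold a match. Among the 165 higher in Mature CD8-1, 126 had one and 4 (3.17%) hold a match. The remaining considered genes gave 4.25% of 3413. Genes high only in Mature CD8-2 could pass the 30 CPM filter, so the 300 genes and their share partly depend on it. The difference between these shares was not tested. Of the cell cycle list, 15 genes had a promoter and 7 hold a match: Cdk1, Mcm2, Mcm3, Mcm5, Mcm6, Stmn1 and Tyms. No match was found in Pcna, Prim1, Dut, Lmnb1, Hmgb2 or Tubb5, which were also higher in Mature CD8-2. A match describes the letters and shows no binding.

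**Figure D4:**
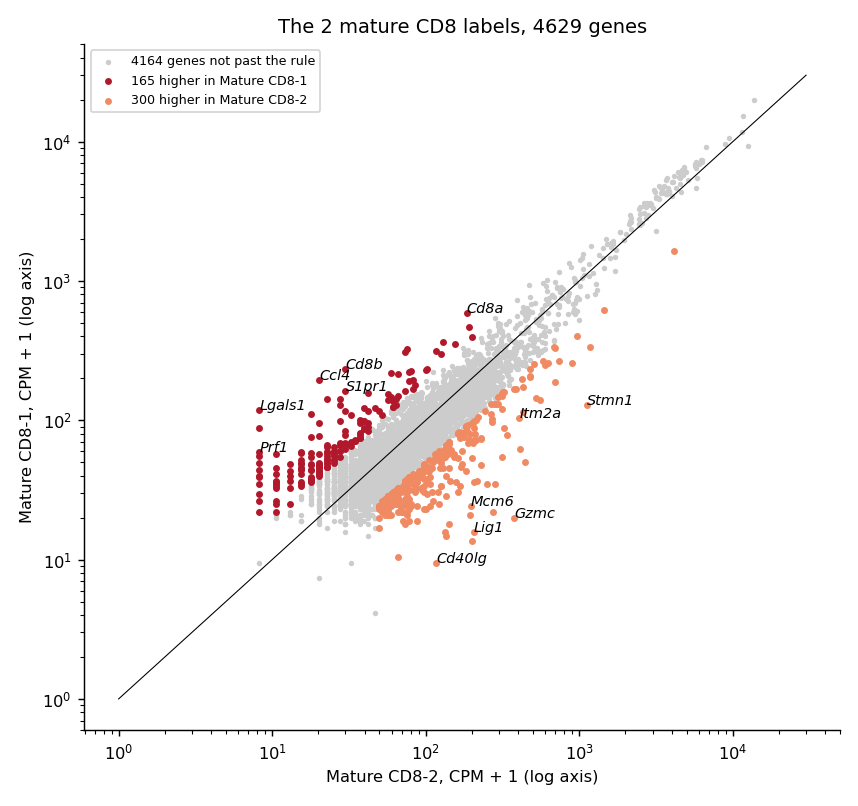
CPM + 1 of 4629 genes in Mature CD8-2 (horizontal) and Mature CD8-1 (vertical), both log axes, with a label of under 3 UMIs drawn at 3 UMIs. The 165 genes higher in Mature CD8-1 include Cd8a, Cd8b and S1pr1, and the 300 higher in Mature CD8-2 include Stmn1, Lig1, Gzmc and Cd40lg.

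Gzmc, a granzyme gene, gave the largest ratio on the side of Mature CD8-2 but came from few cells. It had 156 UMIs (377 CPM) in Mature CD8-2, the highest level of the 21 labels, in 7 of 27 cells, and 3 cells held 87.8% of them. Mature CD8-1 had 18 UMIs in 2 of 91 cells, and Immature CD8 had 0 UMIs. Of the 7 cells, 2 had Cd8 alone, 4 had Cd4 alone and 1 had both. Granzyme genes of this family have close copies, and how reads shared between them were counted is not given in the sources used here. Without those 3 cells, 167 genes were higher in Mature CD8-1 and 281 lower.

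On the side of Mature CD8-1, the 10 largest ratios were Lgals1, Fcrla, Ccl4, Prf1, Cd8b, Ctsc, Garre1, Cxcr4, Tmem163 and Vsir. Lgals1, the lectin galectin-1, had 111 UMIs in Mature CD8-1 (117 CPM) and 2 in Mature CD8-2, a ratio of 24.2 with a wide counting interval of 6.55 to 202.5. Prf1, the pore-forming perforin, had 55 UMIs (58.0 CPM) and 0, at least 8.00-fold higher when Mature CD8-2 is set to 3 UMIs. Fcrla had 82 UMIs and 0, at least 11.9-fold higher, but those UMIs lay in 7 cells. Ccl4, a chemokine gene, stood at 194 against 19.3 CPM (10.0 times, 4.99 to 23.6). It was higher still in Immature CD8-1, at 639 CPM.

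Receptors for exit and positioning were also on this side. Of 5 considered chemokine and lipid receptors, 4 were higher in Mature CD8-1: Ccr9, Cxcr4, S1pr1 and S1pr4. S1pr1 was 5.57 times as high (3.10 to 11.01). Cxcr4, the receptor of the stromal chemokine CXCL12, stood at 141 against 21.7 CPM, 6.499 times (3.32 to 14.5). Of 13 egress genes, 4 were higher and none lower: S1pr1, Foxo1, S1pr4 and Itga4. Of 13 immature genes, Ccr9 was higher, while Itm2a (102 against 406 CPM, 3.97 times lower) and Id3 (2.03 times lower) were lower.

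Restricting Mature CD8-2 to its 11 cells with a Cd8 UMI, an alternative chosen after the data had been seen, gave 296 genes higher in Mature CD8-1 and 145 lower. No gene followed across the alternatives turned.

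In the section, the same labels were assigned by RCTD, a method that estimates the mixture of reference cell types in each bin. Bins of 20 units, 10 µm wide at the nominal 0.5 µm per unit, can hold parts of several cells. The references included the thymocyte library, so the section is a separate readout of RNA but not of the label definitions. Of 592087 labelled bins, 15206 (2.57%) had a Mature CD8 label first, 3474 Mature CD8-1 and 11732 Mature CD8-2. Mature CD8-2 thus led on 3.38 times as many bins, while in the suspension Mature CD8-1 cells were 3.37 times as many as Mature CD8-2 cells. First labels with the authors' confidence mark were 14.8% for Mature CD8-1 and 23.7% for Mature CD8-2.

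Mature CD8 bins were concentrated in the 2 regions deposited as mECA and mEFA, names that the sources used here do not spell out. Mature CD8 led on 12.6% of mECA bins (12.2 to 12.9%) and 14.7% of mEFA bins (14.2 to 15.2%), against 1.52% of cortex and 0.896% of capsular bins. Of all Mature CD8-1 bins 59.4% lay in mECA or mEFA, and of Mature CD8-2 bins 49.7%. The section is 1 sample, and neighbouring bins share RNA, so the intervals are too narrow.

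Mature CD8-1 was 3.04% of mECA and 4.34% of mEFA bins, a ratio of 1.42 (1.31 to 1.55). Mature CD8-2 was 9.52% and 10.4%, a ratio of 1.09 (1.04 to 1.15). The ratio was 1.64 for Mature CD4-1 and 1.20 for Mature CD4-2, so within both lineages the mature label numbered 1 had the higher ratio. Immature CD8-1 and Immature CD8-2 had ratios of 1.28 and 1.21, both above that of Mature CD8-2. For Mature CD8-2 the ratio turned to 0.887 on bins given 1 type and 0.884 on sums of weights. For both Mature CD8 labels together it turned from 1.17 to 0.936 and 0.936. For Mature CD8-1 it stayed above 1 at 1.11 and 1.08.

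Mature CD8-1 was more frequent farther from the edge of these regions. Its share was 2.41% (2.19 to 2.65%) of bins within 25 µm of a bin outside mECA and mEFA, 3.01% at 25 to 50 µm, 3.71% at 50 to 100 µm and 5.68% (5.15 to 6.24%) at 100 to 150 µm. Mature CD8-2 went from 7.76% to 9.13%, 11.1% and 12.3%. Both changed little beyond 150 µm, at 5.57% and 12.6%. Median depth of the bins was 489 to 518 UMIs over these distances. Immature CD8 was flatter, at 6.27% within 25 µm and 7.34% at 100 to 150 µm. Mature CD8 was 53.2% of mature labels within 25 µm and 49.8% at 100 to 150 µm, so the Mature CD4 labels were also more frequent inside.

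Among the 4 mature labels, Mature CD8 made up 51.7% of mature first labels in mECA and 49.2% in mEFA, but 61.1% in cortex and 62.4% in the capsular region. In the suspension, Mature CD8 cells were 118, of which 91 were Mature CD8-1 and 27 Mature CD8-2, beside 248 Mature CD4 cells. Second labels were given to 68.8% of Mature CD8 bins, and the most frequent were medullary epithelial: TEC:mTEC-prol on 28.3%, TEC:mTEC2 on 26.8% and TEC:mTEC1 on 14.5% of bins with a second label.

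**Figure D5:**
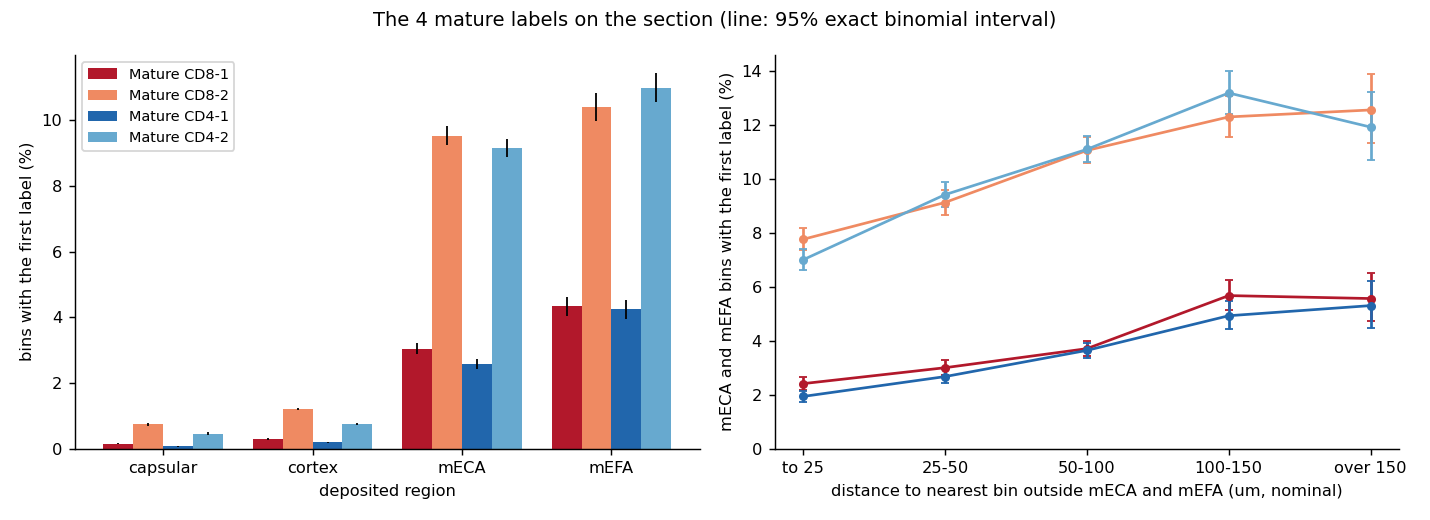
Left, percent of labelled 10 µm bins with each mature label first, in the 4 deposited regions. Right, the same in mECA and mEFA bins by distance to the nearest bin outside them, with 95% exact binomial intervals. Mature CD8-1 goes from 2.41% at the edge to 5.68% at 100 to 150 µm, and Mature CD8-2 lies above it at every distance.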

How the data were processed

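Whole UMI counts per gene and barcode were deposited by the authors, made with Cell Ranger 8.0.0 on mRatBN7.2 per the submitters' processing notes, which also name Seurat 5.3.0. Filters and strand setting are not given in the sources used here. The percent of mitochondrial UMIs deposited by the authors equals that of the 2 mitochondrial rRNA genes. RCTD weights are a fraction per bin deposited by the authors for up to 3 labels. Samples were grouped by their titles, 1 per group, so no test was run. The members, gene lists and named-gene rule were chosen with earlier results of these data known. Named genes were list members and the 10 largest ratios per direction among counted genes, leaving out identifiers, receptor V segments and mitochondrial genes.

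UMIs were summed per label, with exact Poisson, conditional binomial and Clopper-Pearson intervals at 95%. For the rule and the ranking a label with under 3 UMIs was set to 3, while a ratio to 1 or 2 UMIs is printed as measured with its interval. Thinning used seed 11. No doublet caller was run. The ratio rule was tested on simulated counts. Promoters come from RefSeq (GRCr8). Alternatives were filters, thinning, mean CPM per cell, other totals, single labels and, for the section, other bins and weights. Ighm, Trdc, Fasl and Il6ra had no row of that name. Some list members are not reported here. The stromal library was used only for shared barcodes. Software was pandas 2.3.3, SciPy 1.17.1, matplotlib 3.10.9 and NumPy 2.4.6 under Python 3.11.15.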

Additional observations from a re-analysis of the deposited data

How the results depend on the processing

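No paired analysis was possible because only 1 thymocyte library and 1 section were analysed. Depth limits the label Mature CD8-2 most, with 27 cells and 413839 UMIs. A filter at 1000 UMIs per cell changed no count of genes, since every cell of the labels compared passed it. The share of Mature CD8 was 1.94% among cells of at most 5% by the deposited mitochondrial percent, which covers only the 2 mitochondrial rRNA genes. Counts are given as higher and lower. Against Immature CD8 they were 41 and 336 with cells thinned to 1000 UMIs, 209 and 114 with totals that leave out mitochondrial, ribosomal protein and haemoglobin genes (reduced totals), 39 and 35 at a mean CPM of at least 100, 276 and 500 with no filter, and 98 and 235, 160 and 298, and 87 and 35 with Mature CD8-1, Mature CD8-2 and Immature CD8-2 alone, the last chosen after seeing the data. Against Mature CD4 they were 19 and 128 thinned, 23 and 42 as a mean of cells, 75 and 63 with reduced totals, 9 and 5 at 100 CPM, 157 and 279 with no filter, 14 and 71 and 233 and 235 with Mature CD8-1 and Mature CD8-2 alone, and 243 and 337 for the labels numbered 2. For Mature CD8-1 against Mature CD8-2 they were 59 and 11 thinned, 379 and 259 with reduced totals, 39 and 68 at 100 CPM, 304 and 409 with no filter, and 296 and 145 for cells with a Cd8 UMI, also chosen after seeing the data. The CPM limits change how many genes are counted, and other causes were not tested.

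Log2 ratios turned as follows. Against Immature CD8: Cd40lg -1.01 and Mcm6 -0.10 with Mature CD8-1 alone, Lgals1 -0.86 with Mature CD8-2 alone, and Cacnb2 0.19, Cd4 0.57, RT1-A1 -0.13, Tox 0.00758 and Tox2 0.0609 with Immature CD8-2 alone. Against Mature CD4: Mcm3 -0.71, Pcna -0.25, Prim1 -0.36 and Stmn1 -0.60 with Mature CD8-1 alone, and Cd8a -0.19 with Mature CD8-2 alone. For Mature CD8-1 against Mature CD4-1: Angpt1 1.25, Cacnb2 0.30, Emb 0.18, Hells -0.10, Mcm3 -0.9996, Pcna -0.26, Prim1 -0.56, Rag1 0.96, Slc7a11 1.64, Ssx2ip 0.34, Stmn1 -0.38 and Thy1 0.35. For the labels numbered 2: Cd40lg 0.17, Cd8a -0.72 and Runx3 -0.30. For Mature CD8-1 against Mature CD8-2 thinned to 1000 UMIs: Bid -1.34, Ccr9 -1.02, Ctsc -0.75, Cxcr4 -0.34, Garre1 -1.02, Ifnar1 -0.17, Il4r -0.17, Klrk1 -0.75, Lgals1 -0.53, Nlrc5 -0.34, Prf1 -0.34, S1pr1 -0.34, S1pr4 -1.34, Tmem163 -0.34 and Vsir -1.75. That thinning leaves Mature CD8-2 with 27000 UMIs, where the floor of 3 UMIs alone is 111 CPM, so these values say little.

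In the section, the ratio of mEFA to mECA shares for both labels was 0.936 on bins given 1 type, 0.936 on sums of weights and 1.53 on confident first labels. For Mature CD8-1 it was 1.11, 1.08 and 2.02, and for Mature CD8-2 0.887, 0.884 and 1.44. In mECA and mEFA, Mature CD8 made up 50.8% of mature labels, with 37.5% Mature CD8-2 and 13.3% Mature CD8-1. The share of both together was 56.6% on segmented cell bins, 49.9% on bins given 1 type, 52.0% by weights and 46.6% of confident labels. Mature CD8-2 led on 3.38 times as many bins as Mature CD8-1, and 2.79, 4.25, 2.88 and 5.40 times under these settings, and 3.16 times on bins at or above the median depth.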
